A study of Mus musculus with 42 samples.

Results

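The kidneys of mice fed EpSA were compared with those of chow-fed mice at a single time of day, zeitgeber time (ZT) 9, which is 9 h after lights on. The comparison rests on 6 of the 42 libraries of the series, 3 listed mice per diet, and on 13344 of 56691 genes, whose expression averaged 1 FPKM or more over the 14 combinations of diet and time. FPKM counts sequenced fragments per length of transcript and per depth of library. All mice were male wild-type C57BL/6, 6 weeks old at the start, kept in cycles of 12 h light and 12 h dark, and fed for 14 weeks. The control group ate standard chow, and the other group ate a high-fat diet to which 3% of EpSA had been added (epoxystearic acid, formed when oils are overheated), so that fat and EpSA came together and cannot be told apart. Kidneys were also taken at ZT 1, 5, 13, 17, 21 and 25. The deposited values are 1 mean per diet and time, called a pool here, so the spread between mice at ZT 9 is unknown, as are the depth and whether 1 mouse or all 3 gave a high value.

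The kidney is built of glomeruli, which filter blood, and of tubule segments, which take back salts, sugars, amino acids and proteins from the filtrate. The proximal tubule is rich in mitochondria and burns fatty acids. ZT 9 lies late in the rest phase of a mouse, when the clock outputs driven by CLOCK and BMAL1 run high in peripheral organs. The adrenal gland sits on the upper pole of the kidney, makes steroids in its cortex and catecholamines in its medulla, and can be carried along when a kidney is removed.

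The FPKM of the pools summed to between 400590 and 435621 over the 14 pools, and between 27796 and 29783 genes were above 0. At ZT 9 the sums were 402552 in chow and 430135 in EpSA. Kidney genes were present in both: Kap, an androgen-regulated protein of the proximal tubule, stood at 35750 FPKM in chow and 36941 in EpSA, Slc34a1, its phosphate transporter, at 809 and 931, and Aqp2, the water channel of the collecting duct, at 149.8 and 171. Differences below are EpSA minus chow on the log2(FPKM + 1) scale, which understates the change of low genes. Their median over all tested genes at ZT 9 was -0.03, with 5790 of the 13344 above 0 and 7519 below it, so a list at the background has more members below 0 than above. With 1 pool per diet, a ZT 9 difference has no test, and a gene is counted as higher or lower when the difference reaches 1.

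By that measure 34 genes were higher in EpSA, 0.255% of those tested, and 27 were lower, 0.202%. The lower side held antigen presentation genes (Cd74, H2-Ab1, H2-K1, H2-DMb1 and H2-DMb2), 4 immunoglobulin genes, Pigr and the lipid genes Scd1 and Cidec. The higher side was led by 6 genes of the adrenal gland. Of the 34, 7 passed the filter only through their EpSA ZT 9 value: Hsd3b1, Cyp21a1, Chga and Chgb of the adrenal lists, and 1500015O10Rik, Apoa1 and Kcnk3. With genes chosen by the 12 pools of the other times instead, 27 were higher, 24 of them outside the adrenal lists. Counts of this size were not particular to ZT 9: between 49 genes (ZT 5) and 232 genes (ZT 21) differed by at least 1 in either direction at the other times. Within a single diet, the pools of ZT 1 and ZT 25, which fall at the same clock hour, differed by at least 1 in 107 genes in chow and 97 in EpSA, against 61 between the diets at ZT 9. The number of genes past 1 was thus smaller between the diets at ZT 9 than between those pools of 1 diet.

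**Figure D1:**
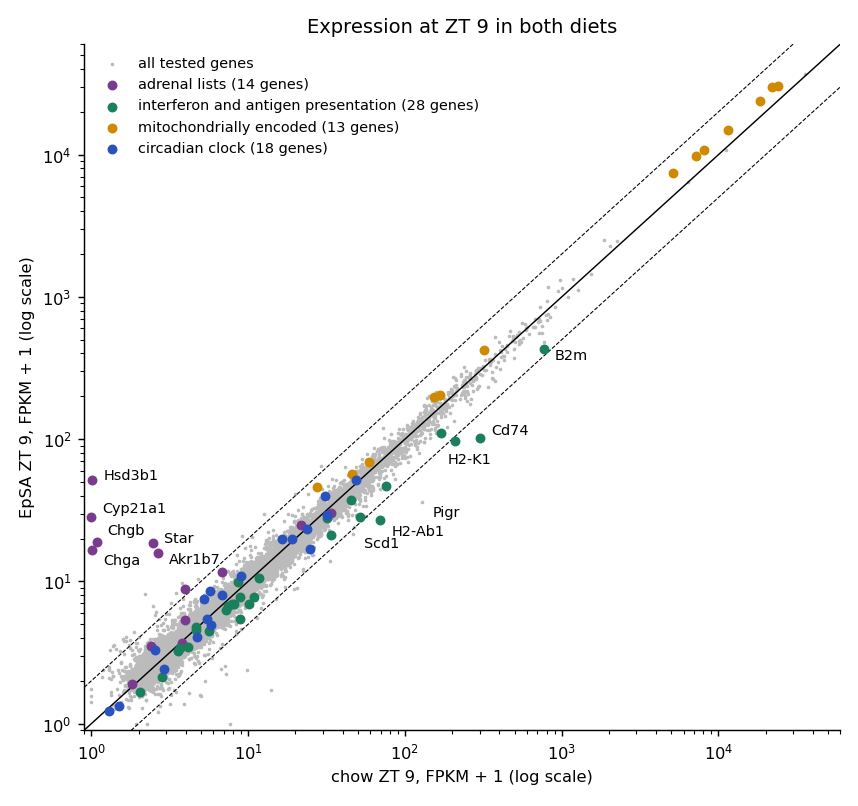
Expression of the 13344 tested genes at ZT 9, chow on the horizontal and EpSA on the vertical axis, both FPKM + 1 on log scales. The solid line marks equal values and the dashed lines a difference of 1 on log2(FPKM + 1). Hsd3b1, Cyp21a1, Chga, Chgb, Star and Akr1b7 lie far above the lines, Hsd3b1 at 0.013 FPKM in chow and 50.4 in EpSA, and Cd74, H2-Ab1, H2-K1 and Pigr lie below them.

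The adrenal genes are given first, since they set this pool apart. Hsd3b1, which converts pregnenolone to progesterone, was at 50.4 FPKM in EpSA ZT 9, at 0.013 in chow ZT 9 and at no more than 0.163 in the other 13 pools. Cyp21a1, the 21-hydroxylase of the adrenal cortex, was at 27.3 FPKM, against no more than 0.053 elsewhere. Star, which carries cholesterol into mitochondria for steroid synthesis, was at 17.7 FPKM against 0.983 to 1.56. Akr1b7, an aldo-keto reductase abundant in the mouse adrenal cortex, was at 14.8 against 1.24 to 2.72, and Fdxr, the reductase that feeds electrons to the steroid-making P450 enzymes, at 10.7 against 5.01 to 6.55. Of the medulla, the granule proteins Chgb and Chga were at 17.8 and 15.6 FPKM, with highest values of 0.097 and 0.063 in the other pools. Npy, a neuropeptide of chromaffin cells, was at 7.88 against 2.13 to 6.05.

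Of 28 genes in the cortex and medulla lists, 14 passed the filter. Hsd3b1, Cyp21a1, Chga and Chgb passed it only through EpSA ZT 9, so their count is no support for a difference. EpSA ZT 9 was the highest of the 14 pools in 1157 of all 13344 tested genes. Of all 28 listed adrenal genes, tested or not, 21 had their highest value there. The others were not all silent in kidney: Slc18a1, a vesicular monoamine transporter, stood between 24.8 and 33.0 FPKM in the 14 pools and at 29.2 in EpSA ZT 9, and Soat1, which stores cholesterol as esters, at 2.69 within a range of 2.50 to 3.11. The summed FPKM of the cortex list was 170.2 in EpSA ZT 9 and 35.9 to 43.9 in the other 13 pools. That of the medulla list was 85.2 against 29.7 to 38.0. In bulk RNA, fewer cells of a type and less RNA per cell cannot be told apart, and here a larger amount of adrenal tissue cannot be told apart from adrenal genes switched on in kidney cells.

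**Figure D2:**
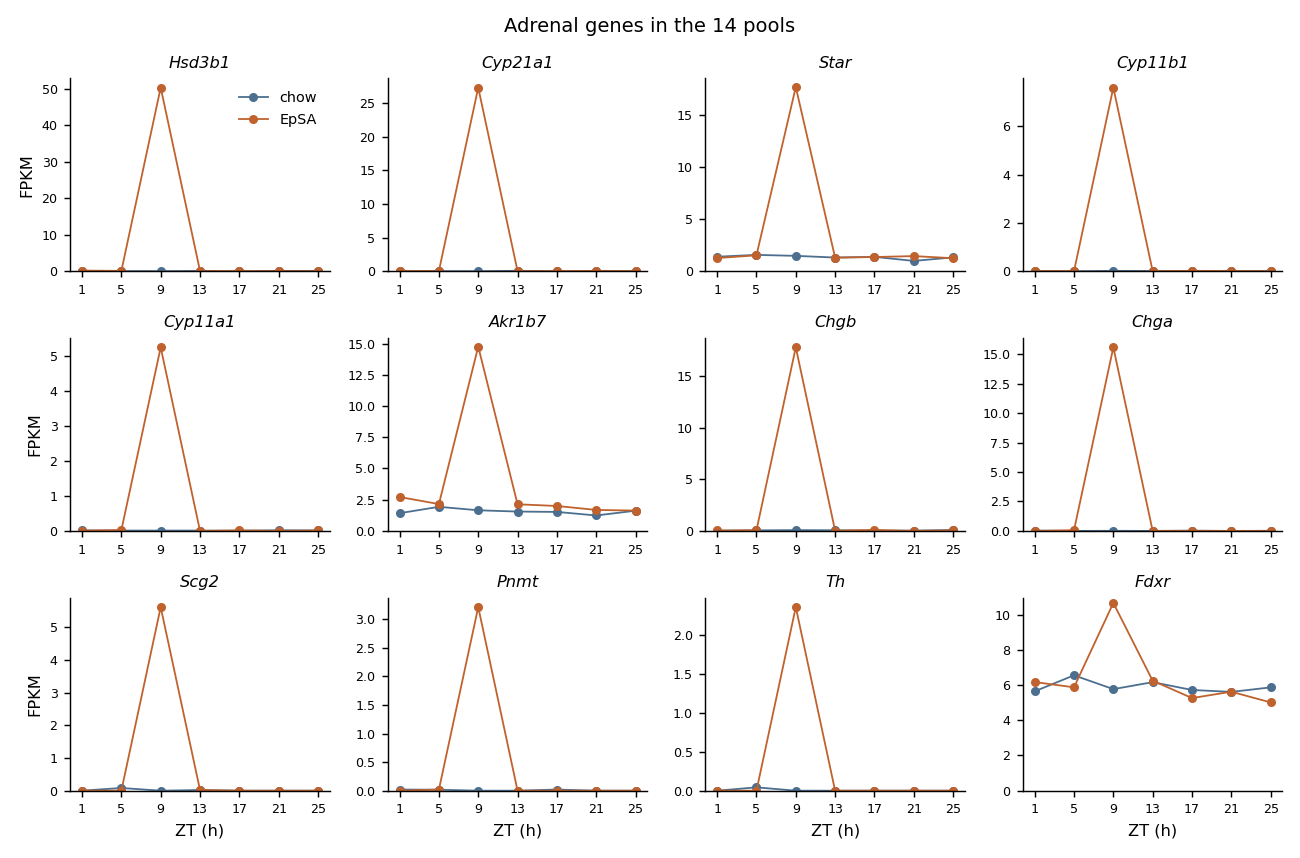
FPKM of 12 genes of the adrenal cortex and medulla lists by zeitgeber time in hours, 1 point per pool, chow in blue and EpSA in orange, each panel on its own scale from 0. In every panel the EpSA ZT 9 point is the highest of the 14 pools, at 7.61 FPKM for Cyp11b1 and 5.61 for Scg2 against at most 0.013 and 0.083 elsewhere.

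The ZT 9 difference was also set against the diet difference at the other 6 times with limma. Its error comes from the spread of the diet difference between times, not between mice. That spread is drawn toward a trend over genes by their mean difference, which includes the ZT 9 value. The error of a gene can thus lie far from its own spread between times. Of 13344 genes, 3 passed an adjusted p of 0.05 upward, 0.0225%, but Chga and Chgb were among those tested only because of the EpSA ZT 9 value itself. The limma estimate was 2.90 ± 0.25 (SE) for Star, higher in EpSA ZT 9 than in each of the other pools, with an adjusted p of 0.0218. With genes chosen by the 12 pools of the other times, Star was the 1 gene that passed, at a limma adjusted p of 0.0313, and Chga and Chgb were not tested. In the fit on all 13344 genes the estimate was 4.12 ± 0.43 for Chgb and 4.03 ± 0.40 for Chga, each with a limma adjusted p of 0.028, which is no support since that value brought them in. No gene passed downward, 0.0%, while 459 genes had an unadjusted limma p under 0.05 downward and 244 upward. With any 1 of the other times left out, 0 genes passed limma in either direction. Hsd3b1, with the largest ZT 9 difference, 5.66, had a limma estimate of 5.65 ± 1.30 (SE) and did not pass. Its differences at the other 6 times had an SD of only 0.10, and it too was tested only through EpSA ZT 9. The genes next in order of p were 1500015O10Rik, a secreted protein also known as augurin, at 3.43 FPKM against 0.573 to 1.16 elsewhere and tested only through that value, then Cyp21a1, Ugt3a1 and Fdxr. Adjusted limma p was 0.252 for 1500015O10Rik and Cyp21a1, 0.254 for Ugt3a1 and 0.381 for Fdxr.

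Among kidney genes, antigen presentation was lower in EpSA at ZT 9. Class I molecules show peptides cut by the proteasome to T cells, and class II molecules, loaded with the help of the invariant chain Cd74, show peptides from outside the cell. All 28 listed genes of interferon response and antigen presentation were tested, with a median of -0.29 against -0.03 for all genes. At least 0.5 lower were 10 of the 28, where 1.49% of all genes were, and 26 of 28 were below 0. The split of all genes past 0.5 was 237 higher and 199 lower, and it depended on scaling. With each column rescaled to the mean sum of the pools it was 163 and 350, with the median difference set to 0 it was 276 and 171, with quantile normalization 247 and 179, and with the sum of nuclear genes made equal 257 and 182. The list median was -0.36 in the first of these and between -0.29 and -0.26 in the other 3. None of the 28 reached 0.5 upward, where 1.78% of all genes did. At other times the list median was -1.49 (ZT 1) and -1.24 (ZT 13), but 0.41 (ZT 17) and 0.49 (ZT 21).

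Among class II genes, Cd74 was at 301 FPKM in chow ZT 9 and 101 in EpSA ZT 9, a difference of -1.57. H2-Ab1, a class II beta chain, was at 68.7 in chow and 26.0 in EpSA, and H2-Aa, an alpha chain, at 50.4 and 27.5. H2-DMb1 and H2-DMb2, chains of the peptide loader, were at 18.5 and 4.34 FPKM in chow and at 7.88 and 0.98 in EpSA. These last 2 are close copies of each other, so their split is uncertain. In EpSA all 7 pools of Cd74 lay between 101 and 133 FPKM. In chow they ran from 99.0 to 796, and chow ZT 9 was the third highest of the 14 pools, while EpSA ZT 9 was the second lowest. H2-Ab1 was alike, at 26.0 to 33.5 FPKM in EpSA and 24.2 to 175 in chow. Within chow, ZT 25 minus ZT 1 was -2.37 for Cd74 and -2.29 for H2-Ab1, further from 0 than the diet differences at ZT 9.

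Among class I genes, H2-K1, a heavy chain, was at 207 FPKM in chow and 96.8 in EpSA at ZT 9, a difference of -1.09. B2m, the light chain shared by class I molecules, was at 766 and 431, and H2-D1 at 167.8 and 109.0. Psmb8, a subunit of the immunoproteasome, was at 7.90 and 4.42 FPKM. Other interferon-induced genes were closer: Isg15, a ubiquitin-like modifier, was at 7.59 in chow and 8.91 in EpSA, and Ifit1, which binds viral RNA, at 6.24 and 5.31. Igtp and Tgtp1, GTPases induced by interferon gamma, were at 21.4 and 3.88 FPKM in chow and 10.7 and 1.66 in EpSA. Pigr, which carries polymeric immunoglobulin across epithelium, was at 127.7 in chow ZT 9 and 35.1 in EpSA ZT 9, with all EpSA pools between 30.3 and 54.7.

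Promoters of 2 of these genes are printed to show where motifs known from class I and class II promoters lie. They are the 250 bases before the start of transcription in the RefSeq promoter table of build GRCm38.p6. The authors' own build was not given in the sources used here. H2-Aa lies at chr17:34287824-34288073, minus strand, and B2m at chr2:122147437-122147686, plus strand. Capitals mark GATTGG, the inverted CCAAT box that forms the Y box of class II and B2m promoters, and TTTCNNTTT, the core of an interferon response element, each searched on both strands.
H2-Aa: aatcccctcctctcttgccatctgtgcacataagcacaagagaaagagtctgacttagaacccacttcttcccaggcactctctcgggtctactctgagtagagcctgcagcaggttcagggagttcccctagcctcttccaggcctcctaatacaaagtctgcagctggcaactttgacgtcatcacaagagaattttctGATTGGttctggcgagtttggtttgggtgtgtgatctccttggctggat
B2m: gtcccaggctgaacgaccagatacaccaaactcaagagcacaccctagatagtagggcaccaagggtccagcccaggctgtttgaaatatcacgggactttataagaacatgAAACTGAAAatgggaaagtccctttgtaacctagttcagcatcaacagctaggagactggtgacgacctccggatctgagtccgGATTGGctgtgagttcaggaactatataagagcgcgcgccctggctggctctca
The inverted CCAAT box begins 49 bases before the start in H2-Aa and 54 before it in B2m, where the interferon core begins 138 before the start. H2-Aa has no interferon core in this window. Of the 28 listed genes, 21 were in the table. Counted per gene over all its starts in the table, the CCAAT letters stood in 7 of those 21, 33.3%, and in 16.6% of all 27025 genes. For H2-K1, 1 of the 7, they lie in the window of only 1 of its 2 starts. The windows of Psmb9 and Tap1 overlap, so these 2 of the 7 are not separate. The interferon core stood in 10 of the 21, 47.6%, and in 10.79% of all genes, so most of the list lacks each motif. A match is a run of letters and not evidence of binding.

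Genes of immune cells were lower along with these. Of 21 listed markers of macrophages and other leukocytes, 11 were tested, with a median of -0.37. Below 0 were 10 of the 11, where 56.3% of all genes were. At least 0.5 lower were 5, where 1.49% of all genes were. The median was lower still at ZT 1 (-1.03), ZT 5 (-0.54) and ZT 13 (-0.67), and above 0 at ZT 17 and ZT 21. Lyz2, lysozyme of macrophages and neutrophils, was at 47.6 FPKM in chow ZT 9 and 28.5 in EpSA ZT 9. C1qa, a complement subunit made by resident macrophages, was at 22.2 and 13.6, and Adgre1, which encodes the macrophage antigen F4/80, at 2.56 and 1.15. The marker list summed to 130.2 FPKM in chow ZT 9 and 84.8 in EpSA ZT 9, with chow pools from 82.9 to 202.2 and EpSA pools from 76.6 to 109.3. Its part in the lower antigen presentation genes was not tested. Immunoglobulin genes varied most: 4 of 23 tested differed by at least 1, all lower in EpSA. Igkv6-15, a kappa variable segment, was at 12.9 FPKM in chow ZT 9 and at 0.727 in EpSA, and Ighv5-16, a heavy variable segment, at 6.64 and 0. Igkv6-15 was at 0.073 to 8.51 in the other chow pools, so chow ZT 9 held the highest of the 14. Without chow ZT 9, the mean of Ighv5-16 and that of Ighj3, a heavy joining segment also counted as lower, were just under 1 FPKM. Over the 12 pools of the other times both were just above 1. Reads of such segments can be split among near-identical copies.

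Some genes of lipid synthesis were lower. SREBP factors drive the enzymes that build cholesterol and fatty acids, and Scd1 puts the first double bond into fatty acids. Of 28 tested genes of this list, 20 were below 0 and 5 were at least 0.5 lower, with a median of -0.09 against -0.03 for all genes, of which 56.3% were below 0. EpSA ZT 9 was the lowest of the 14 pools in 9 of the 28, where it was the lowest in 1435 of all 13344 genes. Scd1 was at 45.5 FPKM in chow ZT 9 and 20.6 in EpSA ZT 9, and its other pools lay between 26.3 and 136. Idi1, which makes dimethylallyl diphosphate for the sterol pathway, was at 4.26 and 2.02, below all other EpSA pools (2.31 to 4.30). Cyp51, the lanosterol demethylase, was at 59.7 in chow and 41.8 in EpSA.

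These genes were not lower at ZT 9 alone. The list median lay below 0 at all 7 times, from -0.28 at ZT 21 to -0.02 at ZT 17, and that of ZT 9 was the third from the top. Fat cell genes were lower beside them at ZT 9: Cidec, a lipid droplet protein, was at 10.3 FPKM in chow and 4.48 in EpSA, Ucp1, the uncoupler of brown fat, at 13.9 and 6.56, and Car3, a carbonic anhydrase abundant in fat, at 42.3 and 28.9. Of 14 fat tissue markers, 11 were below 0, where 56.3% of all genes were, with a median of -0.24. Cidec ran from 4.48 to 21.7 over the 14 pools and Ucp1 from 3.88 to 90.0. The part of attached fat in the level of Scd1, which fat cells also express, was not tested.

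Genes of fatty acid oxidation did not stand higher at ZT 9 as a group. PPARalpha turns on these genes when fatty acids rise. Of 28 tested, 22 were below 0, against 56.3% of all genes, with a median of -0.14, while the median was above 0 at ZT 1, 5, 17, 21 and 25 and below it at ZT 13. Acot1, a cytosolic thioesterase, was at 11.6 FPKM in chow and 7.59 in EpSA, and Ehhadh, the bifunctional enzyme of peroxisomes, at 261.9 and 189, the lowest of its 14 pools. Cpt1a, the gate for fatty acids into mitochondria, was at 67.7 in chow ZT 9, the highest of the 14 pools, and at 57.2 in EpSA. Cyp4a10, an omega hydroxylase, was at 153.9 and 154.4 FPKM. Fabp1, a fatty acid carrier, was the 1 gene of the list past 0.5 upward, at 1.54 in chow and 4.84 in EpSA, the highest of the 14 pools. Among 23 tested enzymes of oxylipin metabolism, which turn fatty acids into signalling lipids, the median was -0.06. Cyp2j9, an epoxygenase, was at 6.68 in chow and 10.2 in EpSA, the highest of the 14 pools, and Ephx2, which opens epoxides of fatty acids, at 174.7 and 199.7.

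Genes of the liver were mixed at ZT 9. Of 9 tested, 5 were above 0 and 4 below, and their FPKM summed to 916.4 in chow ZT 9 and 867.5 in EpSA ZT 9. Alb, serum albumin, was at 2.79 FPKM in chow ZT 9 and 8.70 in EpSA ZT 9, Apoa1, of high-density lipoprotein, at 0.433 and 2.35 (it passed the filter only through the latter), and Apoa2 at 7.71 and 13.0. Ttr, a thyroid hormone carrier, was at 71.1 in chow ZT 9, the lowest of its 14 pools, and 118.8 in EpSA. Of the 9, 4 were at least 0.5 higher, Apoa1 included, and Apoh was at least 0.5 lower, at 8.48 in chow and 5.46 in EpSA. Alb was higher still in EpSA ZT 21, at 9.14 FPKM. Whether RNA of liver origin had a part in Fabp1 was not tested.

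Proximal tubule genes were mostly lower in EpSA at ZT 9. All 30 listed genes were tested, 21 were below 0, where 56.3% of all genes were, and the median was -0.20, the lowest of the 7 times, which otherwise ran from -0.10 to 0.09. Chow ZT 9 was the highest of the 14 pools in 9 of the 30 and EpSA ZT 9 the lowest in 7, against 842 and 1435 of all 13344 genes. Slc3a1, the heavy subunit of the cystine transporter, was at 184 FPKM in chow ZT 9, its highest, and at 120.8 in EpSA ZT 9, its lowest. Slc7a13, an amino acid transporter of the straight segment, was at 373 and 257, and Slc22a19, an organic anion transporter, at 15.1 and 10.2. Lrp2, the endocytic receptor megalin, was at 119.7 and 92.2, and Cubn, its partner cubilin, at 27.7 and 19.8. None of the 30 reached 0.5 upward. The 9 above 0 included Kap and Slc34a1. EpSA ZT 9 was the highest of the 14 pools in 3 of the 30, against 1157 of all 13344 genes. Summed FPKM of the list was 40600.5 in chow ZT 9 and 41471.3 in EpSA ZT 9.

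Ugt3a1, a glycosyltransferase, had the lowest p of the genes below the other times. It was at 46.1 FPKM in chow ZT 9, the highest of 14 pools, and at 23.2 in EpSA ZT 9, the lowest, with the others between 28.8 and 43.1. Its difference was -0.96 at ZT 9 and between -0.11 and 0.24 at the other times, and with a limma adjusted p of 0.254 it did not pass. Slc22a26, another organic anion transporter, was at 7.97 and 3.62, Cyp2d12, a P450 enzyme, at 16.2 and 8.08, and Mme, the peptidase neprilysin of the brush border, at 11.9 and 7.60. In these 3 EpSA ZT 9 was also the lowest of the 14 pools. Ces1g, a carboxylesterase, was at 8.88 in chow and 1.40 in EpSA, but it ranged from 0.973 to 10.1 in chow.

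**Figure D3:**
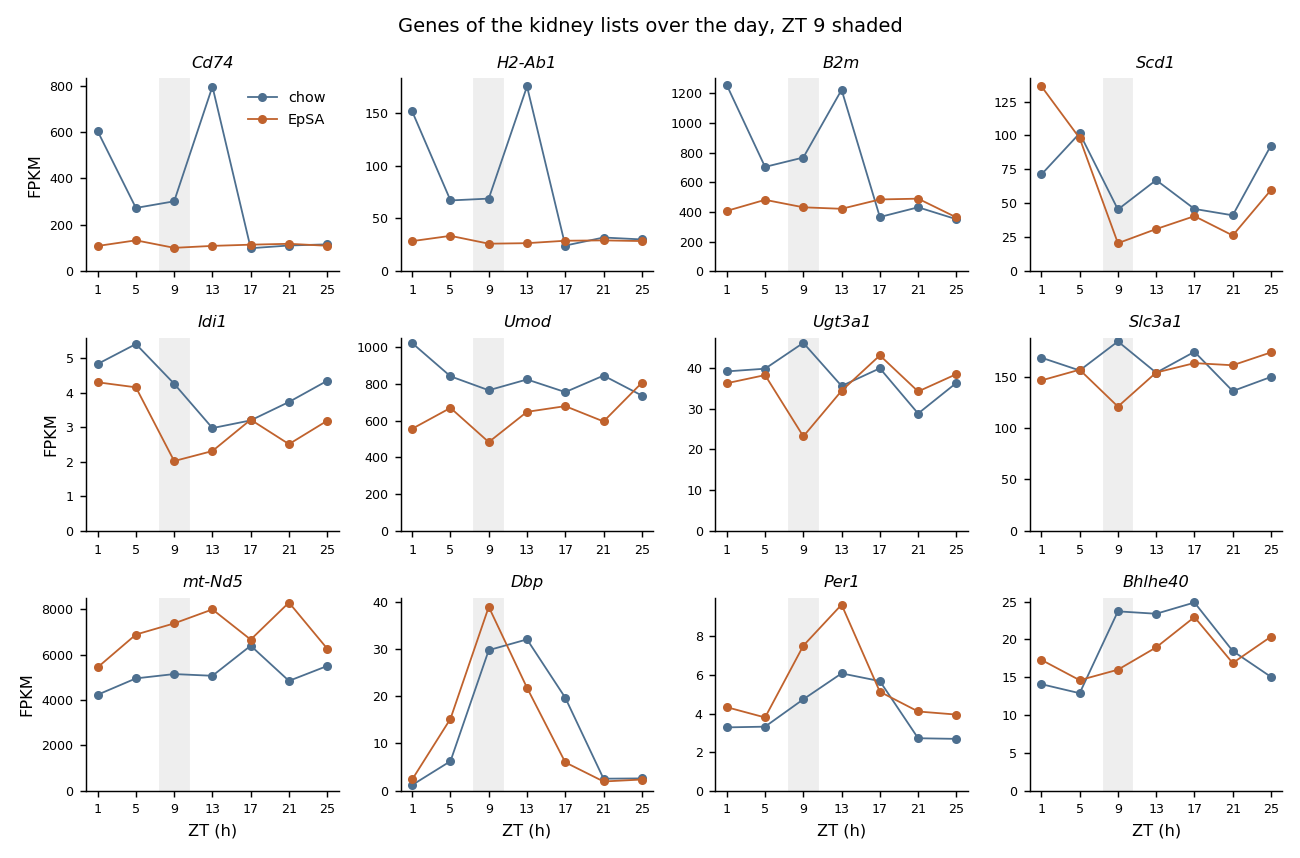
FPKM of 12 genes by zeitgeber time in hours, 1 point per pool, chow in blue and EpSA in orange, each panel from 0, with ZT 9 shaded. Cd74, H2-Ab1 and B2m vary in chow and stay level in EpSA, Ugt3a1 and Slc3a1 are highest in chow ZT 9 and lowest in EpSA ZT 9, and Dbp peaks at ZT 9 in EpSA, at 38.9 FPKM, and at ZT 13 in chow, at 32.0.

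Further along the nephron, Umod, uromodulin of the thick ascending limb, was at 765 FPKM in chow ZT 9 and 483 in EpSA ZT 9, the lowest of 14 pools. Slc12a1, the salt transporter of the same segment, was at 155.8 and 108.8, also the lowest. Both were lower in EpSA at other times too, Umod at all but ZT 25 and Slc12a1 at all 7. The 20 genes of the loop and distal tubule had a median of -0.08, with 2 at least 0.5 lower. The 11 tested genes of collecting duct principal cells had a median of 0.11, the highest of the 7 times, and the 10 of intercalated cells 0.08. With both columns rescaled to the same sum, these medians became 0.01 and -0.01. Slc4a9, a bicarbonate exchanger of intercalated cells, was at 11.9 in chow and 17.3 in EpSA, the highest of 14 pools. Havcr1, the injury marker KIM-1, was at 2.13 in chow ZT 9 and 0.783 in EpSA ZT 9, and the 14 tested genes of tubular injury were split evenly, 7 above and 7 below 0.

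Mitochondrial transcripts were higher in EpSA at ZT 9. All 13 protein genes of the mitochondrial genome were above 0, with a median of 0.37, the second highest of the 7 times, and they made 24.1% of the summed FPKM in chow and 29.8% in EpSA. mt-Co1, a subunit of cytochrome oxidase, was at 23932 FPKM in chow and 30601 in EpSA, the highest of 14 pools, and mt-Nd5, of complex I, at 5144 and 7379. Without these and the other mitochondrial genes, the columns summed to 300485 in chow and 295884 in EpSA, so the larger EpSA sum lay in mitochondrial RNA. Rescaled to the same total, the list median was 0.27. Nuclear genes of the respiratory chain were above 0 in 26 of 33, with a median of 0.12, the highest of the 7 times, and 0.03 after that rescaling. Ndufa1, a complex I subunit, was at 245 and 302 FPKM, and Cox6c, of cytochrome oxidase, at 121.0 and 142.0.

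RNAs kept in the nucleus or tied to splicing were also higher, with a median of 0.30. Above 0 were 18 of 20, where 43.4% of all genes were. Malat1, a long RNA of nuclear speckles, was at 375 FPKM in chow ZT 9 and 522 in EpSA ZT 9, the highest of 14 pools, and Neat1, the scaffold of paraspeckles, at 72.7 and 101.2. The median was above 0 at all 7 times. Protein folding genes went the other way at ZT 9. Of 20 tested genes of the endoplasmic reticulum list, 18 were below 0, where 56.3% of all genes were. Their median was -0.12, and it was lower still at ZT 1 (-0.20) and ZT 13 (-0.14). EpSA ZT 9 was the lowest of 14 pools in 7 of the 20, against 1435 of all 13344 genes. It was also the lowest in 6 of 14 heat shock genes, whose sum was 1009 FPKM in chow and 911 in EpSA, with 999 to 1369 in the other pools.

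**Figure D4:**
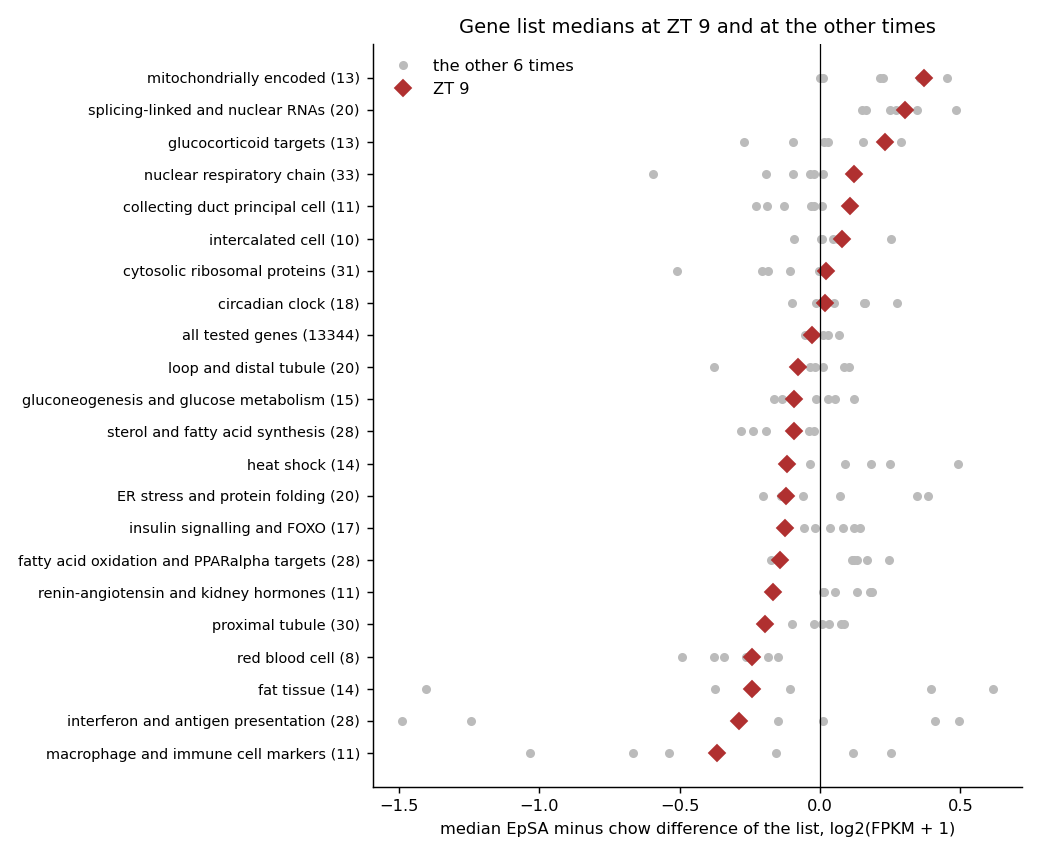
Median EpSA minus chow difference of 22 gene sets on the log2(FPKM + 1) scale, tested genes in parentheses, red diamonds for ZT 9 and grey points for the other 6 times. The median at ZT 9 is the lowest of the 7 for the proximal tubule at -0.20, and within the spread of the other times for interferon and antigen presentation at -0.29.

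The clock genes differed little in level at ZT 9. In the clock, CLOCK and BMAL1 (Arntl) switch on Per, Cry, Nr1d1 and the output factors Dbp and Tef through E-boxes, and the products feed back. Of 19 listed genes 18 were tested, 9 above and 9 below 0, with a median of 0.02, with 4 of the other times above it. None reached 1, and 3 reached 0.5. Per1, a repressor that also answers to glucocorticoids, was at 4.74 FPKM in chow ZT 9 and 7.52 in EpSA ZT 9, a difference of 0.57. Ciart, a repressor of CLOCK and BMAL1, was at 4.25 and 6.58, a difference of 0.53 and the highest of 14 pools. Bhlhe40, a repressor that competes for E-boxes, was lower, at 23.7 and 16.0, a difference of -0.54.

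The other members were closer. Dbp was at 29.8 FPKM in chow and 38.9 in EpSA, a difference of 0.38 between 1.16 at ZT 5 and -0.54 at ZT 13. Nfil3, which opposes Dbp, was at 1.56 and 2.31, 0.37 at ZT 9 between -0.77 at ZT 5 and 0.74 at ZT 13. The differences were 0.29 for Per2 and 0.24 for Per3. They were 0.07 for Tef, 0.06 for Nr1d1, -0.02 for Hlf and -0.02 for Cry2, and those 4 turned sign under at least 1 other scaling. Nr1d2 differed by -0.12, Clock by -0.21, Rora by -0.23 and Cry1 by -0.26. Arntl, near its trough, was at 0.49 FPKM in chow and 0.34 in EpSA, the lowest of 14 pools, and Npas2, its partner's relative, at 0.30 and 0.23. Nr1d1, which represses Arntl, was at 18.0 and 18.7 FPKM, its highest values in chow and in EpSA.

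Promoters of Per1 and Ciart, the clock genes furthest above chow, are shown for their E-boxes, with CACGTG in capitals. Per1 lies at chr11:69098699-69098948, plus strand, where the first of 2 starts in the table is used, and Ciart at chr3:95882229-95882478, minus strand, both GRCm38.p6, RefSeq promoter table.
Per1: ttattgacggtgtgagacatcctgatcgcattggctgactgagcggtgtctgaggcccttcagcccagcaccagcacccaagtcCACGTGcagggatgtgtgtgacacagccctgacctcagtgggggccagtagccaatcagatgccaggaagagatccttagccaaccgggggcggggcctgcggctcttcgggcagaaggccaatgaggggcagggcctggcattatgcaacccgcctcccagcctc
Ciart: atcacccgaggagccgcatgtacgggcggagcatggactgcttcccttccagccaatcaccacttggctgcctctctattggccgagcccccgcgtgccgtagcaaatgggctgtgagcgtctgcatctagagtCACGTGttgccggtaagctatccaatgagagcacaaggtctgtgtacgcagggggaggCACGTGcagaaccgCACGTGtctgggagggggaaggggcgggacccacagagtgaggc
Per1 holds 1 such box, beginning 166 bases before the start, and Ciart holds 3, the first at 116 before it. Of the 19 clock genes 16 were in the table, and 5 of these had a CACGTG, 31.2% against 6.86% of all genes, counted over all starts. The D-box letters TTATGTAA or TTACGTAA, bound by Dbp and Nfil3, stood in 1 of the 16, Per3, and in 1.1% of all genes.

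Glucocorticoid targets were examined since adrenal genes were high in the same pool. Of 13 tested, 9 were above 0, where 43.4% of all genes were, with a median of 0.23, against 0.29 at ZT 13. Per1 alone reached 0.5 upward, where 1.78% of all genes did. Tsc22d3, the leucine zipper GILZ, was at 9.62 FPKM in chow and 11.5 in EpSA, Sgk1, a kinase of salt transport, at 16.2 and 19.9, but Fkbp5, a sensitive target, was lower, at 8.64 and 6.07, the lowest of 14 pools. Hormone levels were not analysed here. Among genes of early response, Gadd45g, a stress sensor, was at 10.1 and 16.5 FPKM and Nr4a1, an orphan receptor, at 0.907 and 1.82. Pck1, the first step of gluconeogenesis, was at 816 in chow and 1173 in EpSA.

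Among other lower genes, Bcl6, a transcriptional repressor, was at 7.36 FPKM in chow and 3.25 in EpSA. It ran from 3.41 to 21.6 in chow, and its diet difference from -2.11 at ZT 21 to 1.85 at ZT 25. Ccn1, a matrix-associated growth regulator, was at 9.48 in chow ZT 9 and 5.91 in EpSA ZT 9. Adamts1, a matrix protease, was at 7.74 and 5.26. For Ccn1 and Adamts1 EpSA ZT 9 was the lowest of the 14 pools. Gldc, of glycine breakdown, was at 19.8 and 13.6, and Ccl5, a chemokine, at 3.54 and 2.13.

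The remaining genes past 1 were few and mostly low. Col27a1, a fibrillar collagen, was at 18.8 FPKM in chow ZT 9, the lowest of 14, and at 39.9 in EpSA, and it was above chow at all 7 times. Aldh1a3, which makes retinoic acid, was at 3.79 and 9.46, Ly6d, a surface protein of epithelia, at 2.46 and 7.22, Kcnk3, an acid-sensitive potassium channel that adrenal cortex also expresses and that passed the filter only through EpSA ZT 9, at 0.62 and 2.78, and Cnbd2 at 2.20 and 6.01. The diet difference of Aldh1a3 ran from -1.42 at ZT 5 to 1.63 at ZT 17. Small RNAs took a large share of the calls. Of 171 tested small non-coding RNAs, 15 differed by at least 1, against 26 of 11340 protein-coding genes. Snord73a, a small nucleolar RNA, was at 1.21 and 7.12 FPKM, Rnu73b at 1.46 and 5.67, and Mir421 at 0.367 and 2.52, while Mir5107 was at 4.02 and 0.557. FPKM divides by length, so a few fragments set the value of so short a gene.

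Transcript length moved with the ZT 9 difference. In protein-coding genes averaging 5 FPKM or more, split into 5 groups of like size by longest transcript in GENCODE M21, the median difference was lower with each step in length: it was 0.04 in the shortest group, then -0.03, -0.06 and -0.09, and -0.13 in the longest. It ran the opposite way at ZT 13, from -0.14 to -0.015, at ZT 21, from -0.30 to 0.14, and at ZT 25, from -0.14 to 0.08. The median longest transcript was 1232 bases in the respiratory chain list and 3484 in the proximal tubule list. With the median of the gene's own length group subtracted, the medians were 0.09 for the respiratory chain, -0.14 for the proximal tubule, -0.26 for antigen presentation and 0.33 for the mitochondrial genes. The part of RNA quality in this gradient was not tested.

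**Figure D5:**
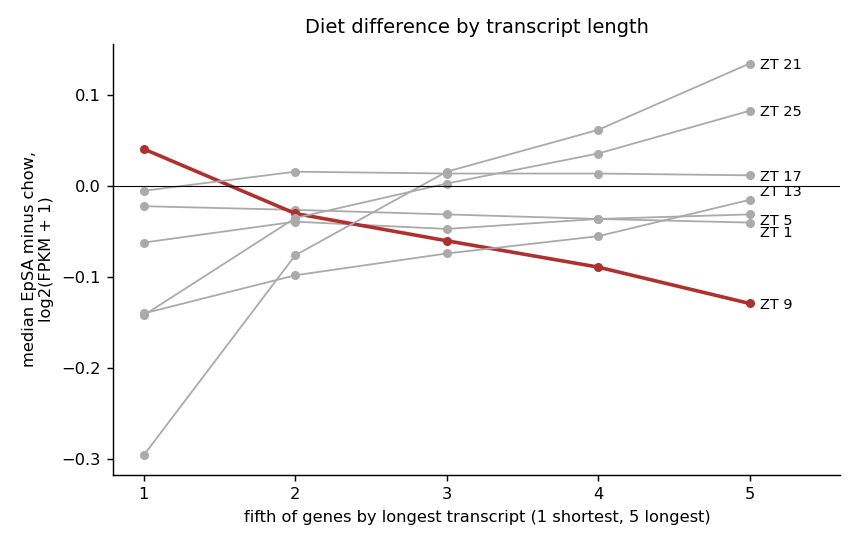
Median EpSA minus chow difference on log2(FPKM + 1) in 5 groups of protein-coding genes by longest transcript, 1 line per time, ZT 9 in red. The ZT 9 line falls from 0.04 to -0.13 with length, while those of ZT 13, ZT 21 and ZT 25 climb.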

How the data were processed

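Kidney RNA was sequenced as paired reads of 150 bases, per the labels' protocols. How reads were aligned, counted and scaled, and on which build, is not given in the sources used here. Per diet the authors deposited 1 table with 1 value per gene and time, taken as FPKM: over genes at 0 in 7 or more pools, the median lowest nonzero value was 0.097 in the shortest of 4 length groups and 0.007 in the longest. All values end in 0, 3 or 7 thousandths, as means of 3 do, and the EpSA table, headed by another abbreviation, was matched through the sample descriptions. Symbols matched 52073 of 56691 identifiers.

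Genes averaging 1 FPKM or more were compared on log2(FPKM + 1), with a pseudocount of 1. The 7 diet differences were fitted in limma 3.58.1 (R 4.3.3) with a term for ZT 9 and 5 residual degrees of freedom, after tests on simulated data, and p-values were adjusted by Benjamini-Hochberg over all tested genes at 0.05. Alternatives covered pseudocount, filter, scaling, variance model and left-out times. Named are all tested clock and adrenal genes, the 15 highest and 15 lowest with a symbol outside the adrenal lists, up to 4 members per list at 0.5 or more, and the 10 lowest limma p; a few of these are only counted or are not reported here, and further genes were chosen after their values were seen. Members and lists were chosen with earlier results of these data known. Python 3.11.15, numpy 2.4.6, pandas 2.3.3 and matplotlib 3.10.9 served otherwise.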

Additional observations from a re-analysis of the deposited data

Results flagged for a closer look

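The diet difference of Star at ZT 9 departed from that of the other 6 times with a limma adjusted p of 0.0218, and those of Chga and Chgb with 0.028 each. Chga and Chgb passed the filter only through their EpSA ZT 9 value, so their p is no support. With genes chosen by the 12 pools of the other times, the adjusted limma p of Star was 0.0313. Over the alternatives run, the adjusted limma p ran from 0.000171 to 0.495 for Star and from 9.19e-07 to 0.928 for Chga and Chgb.

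Genes below the filter of 1 FPKM, outside the comparison, were scanned for values of at least 1 FPKM that were at least 4 times those of every other pool. EpSA ZT 9 held 11 such genes, and the other 13 pools between 0 and 4 each. Of the 11, 7 belong to the adrenal lists: Cyp11b1 at 7.61 FPKM, Scg2 at 5.61, Cyp11a1 at 5.25, Pnmt at 3.21, Dbh at 2.44, Th at 2.36 and Mc2r at 1.30. They include the enzymes for corticosterone and adrenaline and the receptor for corticotropin. The others were Akr1cl at 3.97 FPKM, Mgarp at 3.66, Cyp21a2-ps at 2.00, a pseudogene close to Cyp21a1, and Meg3 at 1.12. The scan was chosen after seeing the data.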

How the results depend on the processing

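No paired analysis was possible because each column is a mean over mice and carries no replicate number. The genes at least 1 higher numbered 34 as reported and 55 with a pseudocount of 0.5, 81 with 0.1, 7 with a mean of at least 5 FPKM, 84 with no filter and 153 when called at 1.5-fold. Outside the adrenal lists the 27 became 48, 74, 7, 71 and 145 under the same settings, and 43 with columns rescaled to the same sum, with or without the adrenal lists. The 27 lower genes became 65 with a pseudocount of 0.1, 10 with a mean of at least 5, 58 with columns rescaled to the same sum, with or without the adrenal lists, and 122 at 1.5-fold. That sum was above the deposited ones, so the pseudocount weighed less; scaled to the mean sum of the pools, added after seeing the data, 29 were higher and 37 lower. With the filter set on the 12 pools of the other times, chosen after seeing the data, 27 were higher and 27 lower, and 1 gene, Star, passed limma. Rescaling to that same sum split the genes past 0.5 into 247 higher and 511 lower, and without the adrenal lists 238 and 509. The limma count above the other times was 3 as reported, 5 with a robust and 6 with an untrended variance model, 0 with a mean of at least 5, 106 with no filter, and 1 with either smaller pseudocount; below, it was 74 with no filter and 1 with a pseudocount of 0.1. Leaving out single times gave 0 to 0 above and 0 to 0 below. With a mean of at least 5 FPKM, Star, Chga and Chgb were no longer among the tested genes. The cause of the other shifts, those without a filter included, was not tested. Of 39 list medians, 7 turned sign with columns rescaled, each within 0.1 of 0. Of 37 at a mean of at least 5 FPKM, 8 did, among them liver (-0.09) and adrenal medulla (-0.15). That filter removed Alb and Apoa1 from the liver list. It removed Chga, Chgb and Npy from the medulla list, whose value is then the difference of Slc18a1 alone. Depth is unknown, so counting error cannot be given.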
